A study of Drosophila melanogaster with 10 samples.

Results

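Among the RNAs of the Drosophila melanogaster testis, 81 genes stood at least 4 times higher in wild type (WT) than in each of 4 genotypes whose testes were enriched for spermatocytes. They were chosen by that difference. The 2 libraries of each group were summed and each gene's count was divided by the group's total and multiplied by 1000000 to give its level per 1000000 counts (CPM). Genes at 4 CPM or more in WT and at least 4 times the highest CPM of the 4 other groups were kept. Of 17412 measured genes, 9353 were at 4 CPM or more in WT, and 114 of these (1.22%) passed the fold. By name, 33 of the 114 were then left out: scpr-A, scpr-B, scpr-C, Mst84Db and 29 long noncoding RNAs. The 10 muscle genes and the mitochondrial genome genes that were also to be left out took nothing from the 114. Among these muscle genes, wupA was not found under that symbol, and the others did not pass the fold. Every contrast of WT with another group was therefore used to choose the genes, and its values below are a description of the choice. The differences among the 4 other groups, the positions and the structures of the genes were not used.

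Sperm are made in the fly testis from stem cells at its tip, which give rise to spermatogonia, then spermatocytes that grow and transcribe heavily before meiosis, and then spermatids that elongate into sperm. Most transcripts that spermatids use are made earlier, in spermatocytes, and stored, while a small group of genes is transcribed after meiosis. A dissected testis also carries a muscle and pigment cell sheath, somatic cyst cells, and whatever duct, fat body, gut or blood cells cling to it.

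RNA was measured in whole testes, 100 pairs per library, of males under 2 days old, with 2 deposited libraries per group. WT flies were raised at 22°C for 10 days and, per the labels, their testes represented all stages of male germ cells. Flies labelled Klp59D KD, Tektin-C KD or B9d1 KD carried, on a w background, an RNA interference construct against the named gene, bam-Gal4, a driver active in late spermatogonia, and UAS-dicer2. These knockdown flies were kept at 22°C for 3 days and at 30°C for 8 days. The sa mutant (sa-/-) lacks a testis form of a general transcription factor subunit that spermatocytes need to turn on meiotic and spermatid genes, and was raised at 22°C for 12 days. B9d1 KD testes are labelled as enriched for young spermatocytes and those of the other 3 altered genotypes for mature spermatocytes. WT was given none of the driver, the extra Dicer-2 and the temperature shift in the labels, so genotype, driver, temperature and the mix of germ cell stages cannot be told apart in any contrast of WT with a knockdown, and genotype and stage cannot in the contrast with the sa mutant. In whole testes, fewer cells of a type and less RNA per cell cannot be told apart either.

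The libraries held 17621525 to 30798942 counts. Within each group, 5.26% to 5.47% of the genes checked lay outside the 95% binomial range of the 2 libraries, and the depth ratio was 1.11 to 1.12 in all 5 groups. The check covered 8992 to 9468 genes a group and left out those with few or very many counts, in WT among them CG10252, GstD5 and Amy-d. Over the genes checked, the 2 libraries thus differed by no more than about the sampling noise. They were summed and counted as 1 sample, so no difference has a replicate check and no test was made. Each ratio's 95% interval is an exact binomial one (Clopper-Pearson), for counting error alone. The targeted transcripts went against 2 labels. Klp59D stood at 23.9 and 24.4 CPM under the label Tektin-C KD and at 369 and 372 CPM under the label Klp59D KD, while Tektin-C stood at 164 and 166 CPM in the former and 14 and 12.8 CPM in the latter. All statements about these 4 libraries go by what the label says ("under the label"), not by which transcript was low. B9d1 was lowest in B9d1 KD (10.1 and 11.2 CPM, against 81.9 to 253 CPM elsewhere) and sa was lowest in the sa mutant (4.82 and 4.19 CPM, against 27.7 to 192 CPM elsewhere). Mitochondrial genome transcripts made up 7.47% and 7.52% of WT counts, 7.53% and 7.57% in the sa mutant and 1.75% to 2.76% in the knockdown libraries.

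The 81 genes gave 3.00% of all WT counts, 0.237% of those in B9d1 KD, 0.568% and 0.237% under the labels Tektin-C KD and Klp59D KD, with 0.129% in the sa mutant. A single gene, CG10252, carried most of this, and without it the shares were 0.996%, 0.0748%, 0.141%, 0.0759% and 0.0611%. The ratio of WT to the highest other group had a median of 7.17 and ran from 4.01 to 901, the last of these over a single count. It was at least 5 in 56 genes, at least 10 in 30, at least 20 in 18, at least 50 in 10 and at least 100 in 5. In 60 of the 81 genes the lower bound of the ratio's interval also lay above 4, and in 21 it lay below. In all 81 genes both WT libraries were above all 8 other libraries, and the lowest WT library was at least 3.27 times the highest other library. The 2 WT libraries differed by a median of 1.04 times and by at most 1.37 times.

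**Figure D1:**
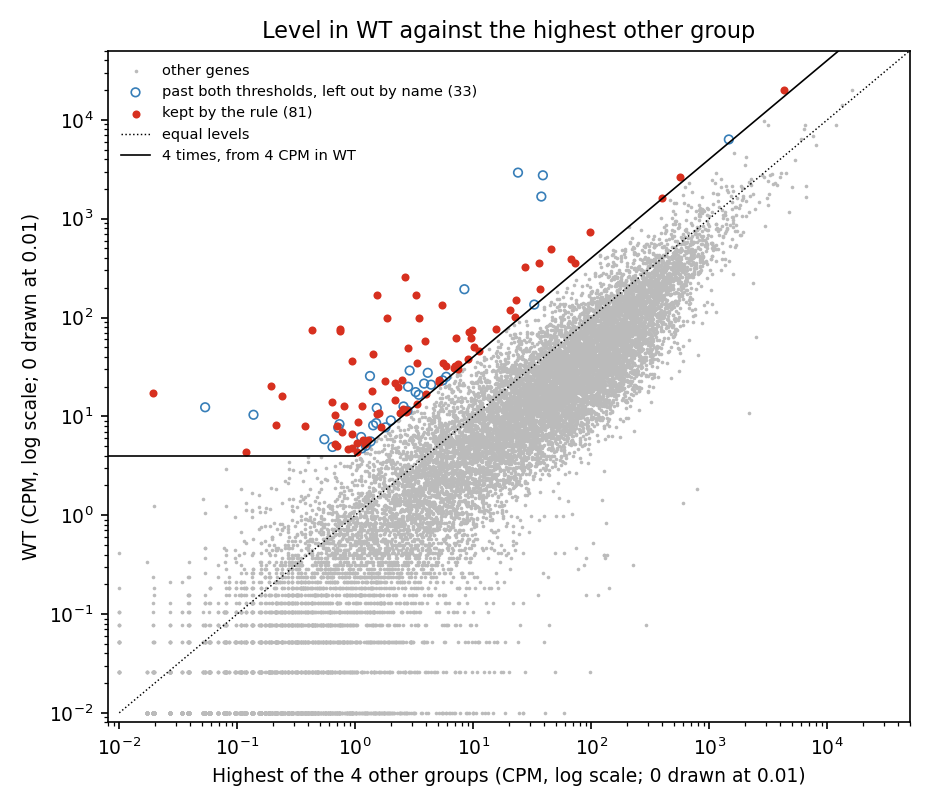
Each point is a gene, by its CPM in WT (vertical axis, log scale) and in the highest of the 4 other groups (horizontal axis, log scale), with summed libraries. The 81 kept genes (red) lie above the line of 4 times the highest other group, the 33 left out by name are open blue circles, and gray points are all other genes.

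Near the fold threshold, the genes just inside were the pseudogene CR43170 (ratio 4.01), CG9928 (4.04) and CG13891 (4.06), and the genes just outside were CG3376 (3.99), CG42733 (3.96) and CG17919 (3.94). Near the level threshold, CG31259 (4.33 CPM in WT), CG9825 (4.4) and yellow-d (4.69) were just inside. Just outside it, among genes that passed the fold, were DIP-beta (3.88 CPM), CG11317 (3.47) and CG4763 (2.95). When any other group took the place of WT in the rule, before names, the sa mutant gave 90 genes, B9d1 KD 30, the libraries labelled Tektin-C KD 7 and those labelled Klp59D KD 3, against the 114 of WT. After the same omissions by name, the sa mutant kept 86 genes, more than the 81 of WT, B9d1 KD 19, and the label Klp59D KD gave 3, as did the label Tektin-C KD.

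Taken one contrast at a time, 7.02% of the 9353 genes at 4 CPM or more in WT were at least 4 times higher there than in B9d1 KD, 5.03% than under the label Tektin-C KD, 5.57% than under the label Klp59D KD and 12.6% than in the sa mutant. All 81 genes are in each of these sets by construction, and the comparisons share the WT libraries. The median log2 ratio of WT over the other group was 4.06 for B9d1 KD, 3.88 and 4.02 for the labels Tektin-C KD and Klp59D KD, with 4.06 for the sa mutant. Over all 9353 genes it was -0.47, -0.11, -0.45 and -0.61. Under scaling by the trimmed mean of M-values (TMM), which sets the bulk of genes near equal, the group totals were multiplied by 0.756 in WT, 1.13 in B9d1 KD, 0.815 and 1.11 under the labels Tektin-C KD and Klp59D KD, with 1.29 in the sa mutant. These medians over all genes became 0.12, 0.00, 0.10 and 0.16, and those of the 81 genes became 4.65, 3.99, 4.57 and 4.84.

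By type, 77 of the 81 genes are protein coding, 3 are antisense RNAs and 1 is a pseudogene. Only 30 have a gene name other than a number, while 47 (58.0%) are protein genes known by a CG number, against 36.3% of all annotated genes at 4 CPM or more in WT. The named genes were sorted by what their products are known to do, a grouping made after their values were seen. By the rule for named genes, Amy-d, AttB, GstD3, GstD5, Cyp9b2, Cpr66Cb, Vajk4, AstCC, Sodh1 and yellow-d are described because of their list, level, ratio or place among the groups, and the other named genes below were chosen after their values were seen.

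Detoxification and redox enzymes made up 5 of the named genes, with a median ratio of 9.87. GstD3 (FBgn0010039; dm6 chr3R:12373068-12373813, plus strand) encodes a glutathione S-transferase of the delta class, the enzymes that attach glutathione to foreign or oxidized compounds. It stood at 488 and 488 CPM in WT, 24.3 and 25.8 in the sa mutant, 33.4 and 33.6 in B9d1 KD, 32.8 and 30.3 under the label Klp59D KD and 46.2 and 45.2 under the label Tektin-C KD. The WT libraries were level with each other, all 8 others were at or below 46.2 CPM, and the ratio to the highest group was 10.7 (10.3 to 11.1). GstD5 (chr3R:12375733-12376572, plus strand), of the same class, stood at 368 and 351 CPM in WT, 37.6 and 35.2 in the sa mutant, 20.3 and 20.6 in B9d1 KD, 13.9 and 12.7 under the label Klp59D KD and 34.3 and 37.1 under the label Tektin-C KD. In GstD5 the sa mutant and the libraries labelled Tektin-C KD overlapped, those labelled Klp59D KD were lowest, and the ratio was 9.87 (9.33 to 10.4).

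Both genes lie in a cluster of GstD genes on arm 3R, and none of the 9 other GstD genes there reached 4 times the highest other group, though 7 of them were highest in WT. The ratio was 3.06 for GstD4, which lies between them and had 23 counts in WT (0.599 CPM). It was 2.21 for GstD7 (11.1 CPM in WT), 2.05 for GstD6 (2.68 CPM) and 2.05 for GstD8 (0.547 CPM), and 1.35 and 1.36 for GstD2 and GstD9. GstD1 was at 354 CPM in WT and 314 CPM in the sa mutant, a ratio of 1.13, and GstD10 and GstD11 had ratios of 0.936 and 0.145. The cluster's genes are similar in sequence, and how reads shared between them were counted is not given in the sources used here, so the split among them is uncertain. Of 36 measured glutathione S-transferase genes, 27 were at 4 CPM or more in WT. Of these, 11 (40.7%) were highest in WT, against 18.4% of all 9353 genes, and only GstD3 and GstD5 (7.41%) were kept, against 0.866%. The list's summed level was 4331 CPM in WT, 4157 in B9d1 KD, 3974 and 4468 under the labels Tektin-C KD and Klp59D KD, with 8089.9 in the sa mutant. GstS1 carried the high sum of the sa mutant (6562 CPM, against 2143 in WT), and without it the sums were 2188 CPM in WT, 1528 in the sa mutant and 721 to 829 CPM in the knockdowns, so that WT was highest.

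Uro encodes urate oxidase, known in flies as an enzyme of the Malpighian (renal) tubules. It stood at 36.1 and 37.1 CPM in WT, 1.02 and 0.858 in the sa mutant, 0.456 and 0.559 in B9d1 KD, 0.486 and 0.473 under the label Klp59D KD and 0.974 and 0.552 under the label Tektin-C KD. All 8 libraries outside WT lay at or under 1.02 CPM, the knockdowns overlapped, and the ratio was 39.1 (28 to 56.4). The cytochrome P450 genes Cyp9b2 and Cyp4ae1, which encode heme-containing monooxygenases, were low throughout. Cyp9b2 stood at 5.79 and 5.69 CPM in WT, 1.19 and 1.36 in the sa mutant, 1.04 and 1.19 in B9d1 KD, 1.01 and 1.24 under the label Klp59D KD and 1.08 and 0.909 under the label Tektin-C KD, with a ratio of 4.47 (3.26 to 6.25), and the 4 other groups lay between 0.991 and 1.28 CPM when summed. Cyp4ae1 was at 6.99 CPM in WT and 0.41 to 0.766 CPM in the others. Of 72 measured P450 genes on a fixed list, 42 were at 4 CPM or more in WT and 23 of these (54.8%) were highest there, against 18.4% of all genes. Of the 42, Cyp9b2 was the 1 kept (2.38%, against 0.866% of all genes), and Cyp4ae1 is not on the list. The list's summed level was 2497 CPM in the sa mutant, 2444 CPM in WT and 718 to 777 CPM in the knockdowns. Without Cyp6d5, the highest of its genes, it was 1546, 1675 and 560 to 656 CPM.

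The 3 carbohydrate enzyme genes had ratios between 4.29 and 6.78. Amy-d (FBgn0000078; dm6 chr2R:17124764-17126369, plus strand) encodes an alpha-amylase, the starch-digesting enzyme of the gut. It stood at 344 and 361 CPM in WT, 72.4 and 72.2 in the sa mutant, 40.1 and 43.1 in B9d1 KD, 56.1 and 56.7 under the label Klp59D KD and 30.3 and 30.7 under the label Tektin-C KD. The WT libraries were far above the others, every other group was separate from the next, and the ratio was 4.88 (4.68 to 5.09). Its near-identical partner Amy-p, some distance away on the opposite strand, was at 468 CPM in WT, 44.9 in B9d1 KD, 42.4 and 61.1 under the labels Tektin-C KD and Klp59D KD, with 159.6 in the sa mutant, a ratio of 2.93 that fell short of the rule. Reads of the pair may have been split between them.

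Amylase was not accompanied by other midgut digestion genes. The 35 listed genes of the midgut summed to 829 CPM in WT, 95.1 in B9d1 KD, 94.9 and 135 under the labels Tektin-C KD and Klp59D KD, with 269 in the sa mutant. Amy-p and Amy-d made up nearly all of the WT sum, and the other genes summed to 7.85 CPM in WT and 8.45 to 37.3 CPM elsewhere. In WT, 19 of the 35 had 0 counts, among the rest alphaTry and betaTry, digestive trypsins, had 1 count each, and the maltase gene Mal-A1 also had 1 count while reaching 3.31 CPM in the sa mutant. Mal-B1, another alpha-glucosidase gene, was kept at 10.9 CPM in WT and 1.6 CPM in the highest other group, the sa mutant. Sodh1, which encodes sorbitol dehydrogenase, stood at 20.6 and 23.3 CPM in WT, 3.92 and 4.44 in the sa mutant, 4.64 and 5.59 in B9d1 KD, 3.2 and 4.0 under the label Klp59D KD and 3.54 and 4.71 under the label Tektin-C KD. B9d1 KD was the highest of the 4 others for Sodh1, but its libraries overlapped with those labelled Tektin-C KD and the order of these turns under TMM scaling, and the ratio was 4.29 (3.73 to 4.94).

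Of the 5 genes of the cuticle protein and yellow families, 3 were at no more than 0.374 CPM in any other group. Cpr66Cb (FBgn0035875; dm6 chr3L:8336672-8338595, plus strand) encodes a cuticle protein with a chitin-binding region, a component of the fly's outer covering and of the linings of its ducts. It stood at 16.2 and 18.2 CPM in WT (662 counts), at 0 in 7 of the 8 other libraries, and at 0.0405 CPM (1 count) in the first library labelled Klp59D KD. The ratio to that group was 901 (161 to 35623), and the 0 counts allow up to 0.0588 CPM in B9d1 KD, 0.0513 under the label Tektin-C KD and 0.0802 in the sa mutant. Vajk4, of a family of secreted cuticle-associated proteins, stood at 21.3 and 19.5 CPM in WT, 0.113 and 0.0505 in the sa mutant, 0.249 and 0.0745 in B9d1 KD, 0.243 and 0.145 under the label Klp59D KD and 0.18 and 0.13 under the label Tektin-C KD. The highest of the 8 other libraries was at 0.249 CPM, and the ratio was 106 (57.5 to 222).

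Cpr97Eb, a second cuticle protein gene, was at 8.03 CPM in WT and at 0.137 to 0.374 CPM in the others. The yellow genes encode secreted proteins, of which the founding member yellow acts in pigmentation. Of these, yellow-e2 was at 16.9 CPM in WT and 4.0 CPM under the label Tektin-C KD, and yellow-d was at 4.69 CPM in WT and 0.862 CPM under the label Klp59D KD. The yellow-d locus overlaps CG13551, on the opposite strand, which was at 96.8 CPM in WT and 97.1 to 179 CPM elsewhere, and without a stated strand setting their reads cannot be told apart.

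Immune genes and secreted signals numbered 5, with a median ratio of 5.02. AttB (FBgn0041581; dm6 chr2R:14749223-14750165, plus strand) encodes attacin B, a peptide that acts against Gram-negative bacteria. It stood at 13.7 and 15.6 CPM in WT, 2.27 and 2.07 in the sa mutant, 0.621 and 0.819 in B9d1 KD, 0.122 and 0.255 under the label Klp59D KD and 1.12 and 1.1 under the label Tektin-C KD. The sa mutant was the highest of the others and the libraries labelled Klp59D KD the lowest, with no overlap between them, and the ratio to the sa mutant was 6.78 (5.36 to 8.67). The attacin genes differed from each other, and their similar sequences leave the split of reads between them uncertain. AttA, beside AttB, was at 0.886 CPM in WT, and AttC was at 50.9 CPM in WT and 41.1 CPM in the sa mutant, a ratio of 1.24, against 2.39 to 3.74 CPM in the knockdowns. Of 47 measured antimicrobial and recognition genes, 15 were at 4 CPM or more in WT, and 13 of these (86.7%) were highest there, against 18.4% of all genes. Of the 15, AttB was the 1 kept (6.67%, against 0.866% of all genes). The list summed to 286 CPM in WT, 220.2 in the sa mutant and 64.0 to 99.6 CPM in the knockdowns.

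The other secreted products were Idgf2, BaraB, Vago and spz5. Idgf2, a chitinase-like growth factor, stood at 77.4 and 75.4 CPM in WT, 12.5 and 14.1 in the sa mutant, 16.6 and 15 in B9d1 KD, 14.8 and 13.7 under the label Klp59D KD and 15.8 and 15 under the label Tektin-C KD. Its WT libraries were well above an even level in the other 4 groups, from 13.4 to 15.7 CPM when summed. BaraB, of the Baramicin family, was at 19.6 CPM in WT and 2.3 CPM in the sa mutant. Vago, a secreted antiviral factor, was at 5.29 CPM in WT and 0.735 to 1.21 CPM elsewhere, but it lies over the gene CG2076 of the same strand, so the split of reads is uncertain. A ligand of the Spätzle family, spz5, was at 5.81 CPM in WT and 0.824 to 1.16 CPM elsewhere.

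Genes known from neurons and from cell surfaces numbered 6, with a median ratio of 6.98. Snmp2, a membrane protein of the CD36 family known from the antenna, stood at 196 and 190.3 CPM in WT, 38 and 36.2 in the sa mutant, 16.6 and 16 in B9d1 KD, 19.8 and 21.6 under the label Klp59D KD and 13.4 and 12.7 under the label Tektin-C KD. The sa mutant was the highest of the others, without overlap, and the ratio was 5.2 (4.91 to 5.51). AstCC (FBgn0032337; dm6 chr2L:11083459-11085229, minus strand) encodes a neuropeptide of the allatostatin C group. It stood at 13.9 and 14.3 CPM in WT, 0.113 and 0.252 in the sa mutant, 0 and 0.0745 in B9d1 KD, 0.851 and 0.436 under the label Klp59D KD and 0.0361 and 0.0325 under the label Tektin-C KD. The libraries labelled Klp59D KD were above the rest outside WT for AstCC, where B9d1 KD and the libraries labelled Tektin-C KD held 2 counts each, and the ratio was 22.3 (15.7 to 32.7).

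The level of cDIP, a secreted or surface protein that binds Dpr proteins, was 71 CPM in WT and 6.49 to 9.27 CPM in the others. The gene dpr15, of the Dpr family of immunoglobulin-domain surface proteins, was at 6.57 CPM in WT and 0.935 CPM in the sa mutant. GluRIIC, a subunit of the glutamate receptor of the nerve-muscle junction, was at 32.5 CPM in WT, 5.9 under the label Tektin-C KD and 2.16 to 2.99 CPM in the other 3 groups. Tbh, which encodes tyramine beta-hydroxylase, the last step of octopamine synthesis, was at 10.6 CPM in WT and 0.718 to 1.52 CPM elsewhere. A list of neuron and glia markers, 8 measured and 4 of them at 4 CPM or more in WT, held none of the 81 genes, against 0.866% of all 9353. It summed to 71.9 CPM in WT, 65.2 in the sa mutant and 25.9 to 42.8 CPM in the knockdowns. Without nSyb, the highest of them in WT, the sums were 40.6, 33.7 and 23.1 to 36.9 CPM in the same order. Without cac as well, they were 21.1, 26.0 and 18.6 to 23.0 CPM.

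Among the other named genes, CAH5, a carbonic anhydrase, stood at 49.9 and 48.5 CPM in WT, 3.01 and 2.63 in the sa mutant, 1.57 and 1.19 in B9d1 KD, 0.203 and 0.182 under the label Klp59D KD and 0.18 and 0.552 under the label Tektin-C KD. WT was highest, the sa mutant and B9d1 KD followed in that order without overlap, and the ratio was 17.5 (14.4 to 21.5). The small heat shock protein gene l(2)efl was at 34.8 CPM in WT and 3.35 CPM under the label Tektin-C KD, while the 14 measured genes of the heat shock list summed to 3077 CPM in WT, 3424 under the label Tektin-C KD and 5422 to 8233 CPM in the other 3 groups. Without Hsp83 that list summed to 1005 CPM in WT, 916 under the label Tektin-C KD and 1439 to 4767 CPM in the other 3 groups. RpS28a, one copy of the ribosomal protein S28 gene, was at 10.9 CPM in WT and 2.41 CPM in the highest other group. The other copy, RpS28b, on the X chromosome, was at 487 CPM in WT and 299 to 758 CPM elsewhere, a ratio of 0.643. The remaining named genes were rho-6 (23.2 against 2.48 CPM in the highest other group), a rhomboid family gene, Hf (38 against 9.03) and Rcd2 (46.2 against 11.2).

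**Figure D2:**
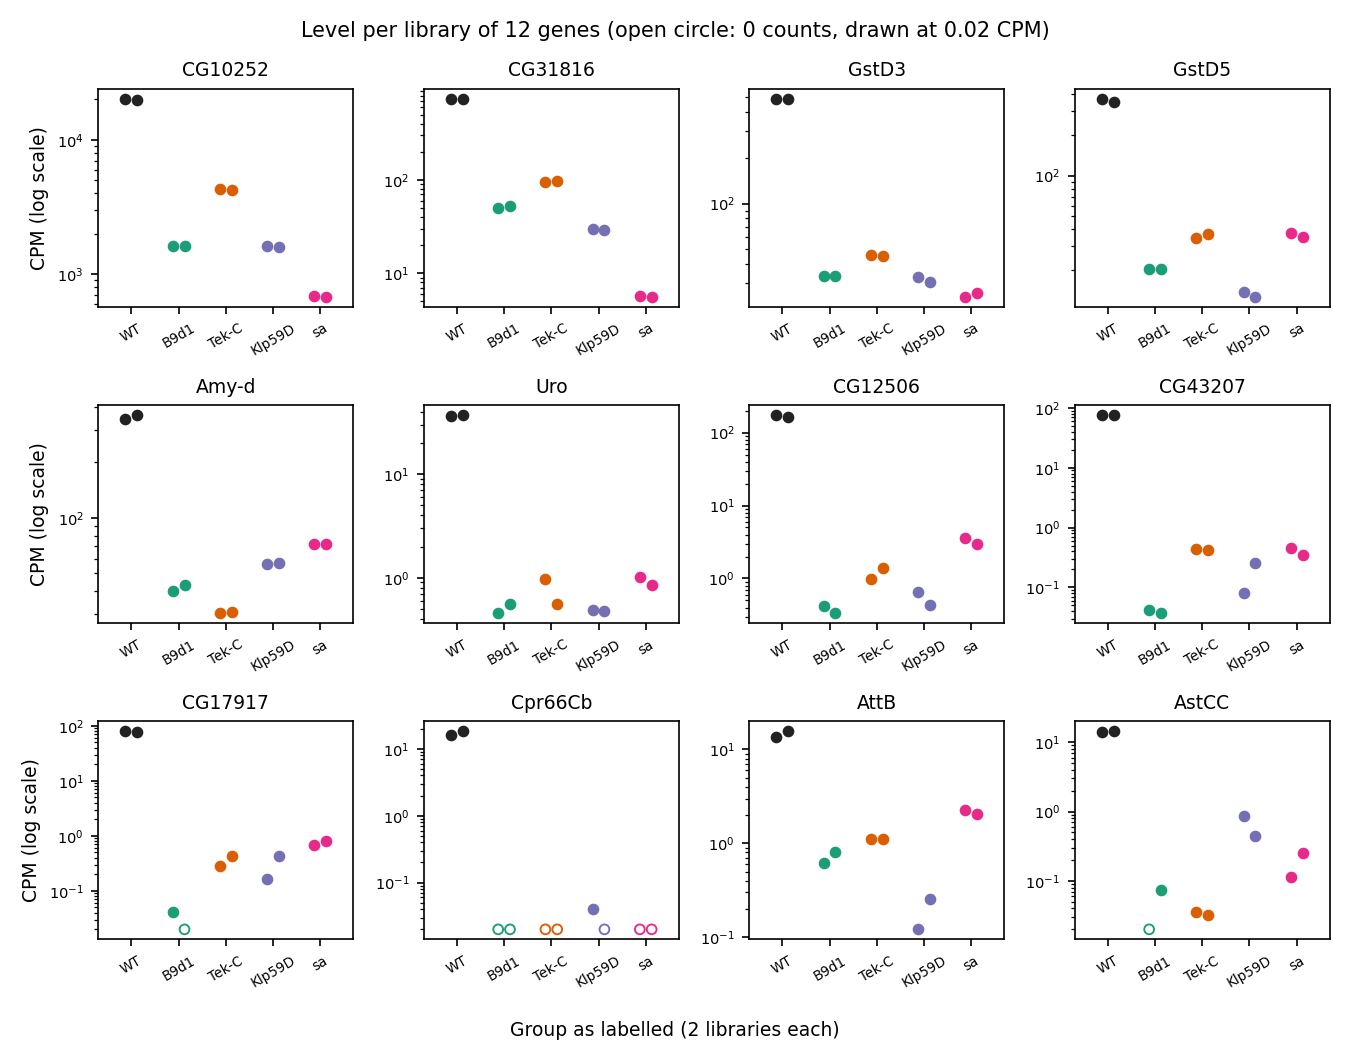
Level per library of 12 of the genes, in CPM on a log axis that differs between panels, with each of the 10 libraries a point and the 5 groups as labelled. In every panel both WT points lie above all others, and the order of the other groups changes from gene to gene, from the libraries labelled Tektin-C KD in CG31816 to the sa mutant in CG12506.

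The genes with the highest WT levels per kilobase of exon were mostly CG-number genes, which the sources used here do not annotate further. CG10252 (FBgn0039104; dm6 chr3R:23695221-23696245, minus strand) stood at 20189.8 and 19969.8 CPM in WT, 686 and 679 in the sa mutant, 1635 and 1619 in B9d1 KD, 1629 and 1602 under the label Klp59D KD and 4288 and 4259 under the label Tektin-C KD. Its 2 libraries agreed closely in every group, the libraries labelled Tektin-C KD were the highest of the others and the sa mutant the lowest, and the ratio was 4.7 (4.68 to 4.72). Per kilobase of exon its WT level was 24098 CPM, against 4126 for CG31639, 2129 for CG13891 and 1446 for CG31816, the next in order.

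These 4 genes shared their highest and their lowest other group. CG31639 (chr2L:6153840-6155141, minus strand) was at 2612 CPM in WT, 564 under the label Tektin-C KD, 256 under the label Klp59D KD, 253 in B9d1 KD and 105 in the sa mutant. CG13891 (chr3L:433146-433906, minus strand) was at 1620.0, 399, 171, 112 and 41.9 CPM in the same order of groups. CG31816 (chr2L:16542546-16543263, plus strand) was at 736, 97, 29.4, 51.6 and 5.66 CPM. All 4 were highest outside WT under the label Tektin-C KD and lowest in the sa mutant, while B9d1 KD and the libraries labelled Klp59D KD came between them in either order. For CG31639 and CG10252 these 2 knockdowns were nearly level. The distance between the highest and the lowest of the other groups was 6.26 times for CG10252, 5.37 for CG31639, 9.51 for CG13891 and 17.1 for CG31816.

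Other genes with high WT counts showed other orders. CG12111 was at 321 CPM in WT, 27.4 under the label Tektin-C KD and 11.3 to 18.4 CPM in the remaining groups. CG6628 (chr3L:10165809-10167023, minus strand), which lies over dpr10 on the same strand, stood at 397 and 393 CPM in WT, 66.7 and 68.5 in the sa mutant, 55.7 and 57.8 in B9d1 KD, 29.6 and 30.4 under the label Klp59D KD and 13.9 and 12.3 under the label Tektin-C KD. Here the libraries labelled Tektin-C KD were lowest, 5.17 times under the sa mutant, the reverse of the order in CG10252. CG42827 was at 254 CPM in WT and at no more than 2.62 CPM in any other group.

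Of the 10 genes with a ratio of 50 or more, 8 are CG-number genes, and they differed in which group kept a trace. CG43207 (FBgn0262843; dm6 chr2R:23152748-23153318, plus strand) stood at 75.5 and 75.4 CPM in WT, 0.454 and 0.353 in the sa mutant, 0.0414 and 0.0372 in B9d1 KD, 0.081 and 0.255 under the label Klp59D KD and 0.433 and 0.422 under the label Tektin-C KD. B9d1 KD held 2 counts, the libraries labelled Tektin-C KD 25 counts and the sa mutant 15 counts, and the ratio was 177 (119 to 273). CG32457 (chr3L:22987642-22988262, plus strand) stood at 174 and 162 CPM in WT, 0.511 and 0.555 in the sa mutant, 0.124 and 0.149 in B9d1 KD, 0.81 and 0.655 under the label Klp59D KD and 1.52 and 1.53 under the label Tektin-C KD. It too was lowest in B9d1 KD and highest under the label Tektin-C KD, 11.1 times apart, and its ratio was 110.4 (89.6 to 138).

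CG17917 (chr3R:6341968-6342873, plus strand) stood at 79.1 and 75.7 CPM in WT, 0.681 and 0.808 in the sa mutant, 0.0414 and 0 in B9d1 KD, 0.162 and 0.436 under the label Klp59D KD and 0.289 and 0.422 under the label Tektin-C KD. It had 1 count in B9d1 KD, and its ratio to the sa mutant was 103 (71.4 to 156). CG42827, CG13947, CG42870, CG31296 and CG12506 had ratios of 97.1 (79.6 to 119.8), 97 (67 to 146), 66.6 (34.8 to 146), 53.6 (44.3 to 65.5) and 51.4 (43 to 61.9). CG42870 was at 16 CPM in WT and had 0 counts in B9d1 KD and 2, 8 and 9 counts under the label Klp59D KD, under the label Tektin-C KD and in the sa mutant. CG31296, at 99 CPM in WT, was the most even of these elsewhere, from 1.04 to 1.85 CPM.

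**Figure D3:**
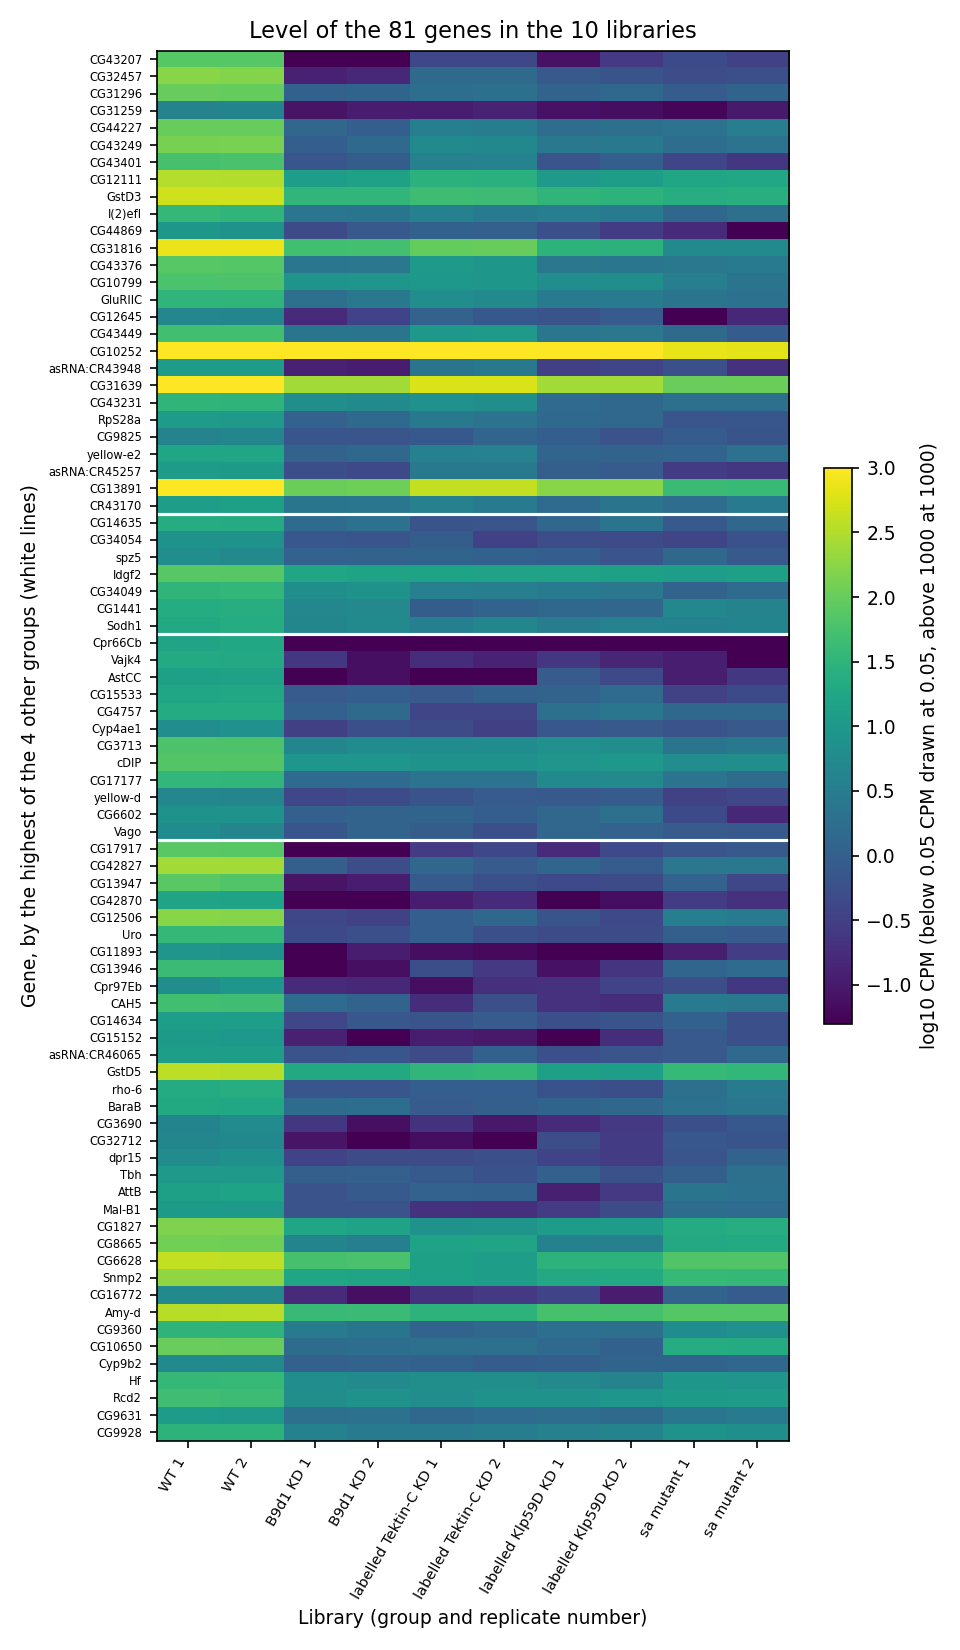
Level of each of the 81 genes (rows, as log10 CPM by color) in each of the 10 libraries (columns). Rows are grouped by which of the 4 other groups is highest. From the top these are the libraries labelled Tektin-C KD (27 genes), B9d1 KD (7), those labelled Klp59D KD (12) and the sa mutant (35). The 2 WT columns are the brightest in every row except CG10252. Levels above 1000 CPM are drawn in the same color, and CG10252 passes that level in all groups but the sa mutant.

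Outside WT the 81 genes were low relative to their own WT level but seldom at 0. Their median level was 5.99% of WT in B9d1 KD, 6.80% and 6.16% under the labels Tektin-C KD and Klp59D KD, with 5.98% in the sa mutant, and the rule bounds each value at 25%. Counts were 0 for 2 genes in B9d1 KD, for 1 under the label Tektin-C KD, for 1 in the sa mutant and for none under the label Klp59D KD. In all 4 groups at once, 20 genes were under 1 CPM, and 10 of these were at 10 CPM or more in WT.

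**Figure D4:**
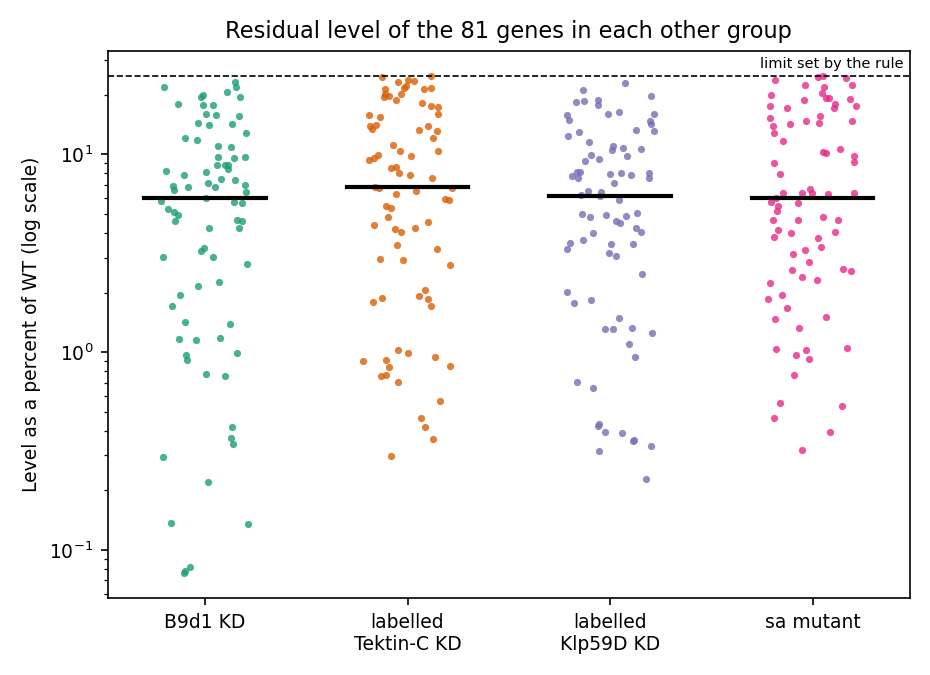
Level of each of the 81 genes in each other group as a percent of its WT level (log scale), with 1 point a gene, the median as a bar, and counts under 3 raised to 3 counts. The dashed line is the limit of 25% that the rule sets, and the medians lie between 5.98% and 6.80%.

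The rule bounds the highest of the 4 other groups from above but does not say which it is. It was the sa mutant for 35 genes, the libraries labelled Tektin-C KD for 27, those labelled Klp59D KD for 12 and B9d1 KD for 7. Over all 9353 genes the shares were 48.1%, 23.0%, 9.34% and 19.6%, against 43.2%, 33.3%, 14.8% and 8.64% of the 81. Over the 1603 genes with WT highest but a ratio under 4, the sa mutant was highest of the rest in 41.4% and the libraries labelled Tektin-C KD in 43.2%. The lowest group was the sa mutant for 23 genes, the libraries labelled Tektin-C KD for 21, those labelled Klp59D KD for 20 and B9d1 KD for 16, so that no group held most of the low values, while Cpr66Cb had 0 counts in 3 of the groups. Over all 9353 genes these shares were 27.8%, 58.9%, 4.21% and 9.02%, against 28.4%, 25.9%, 24.7% and 19.8% of the 81. These counts depend on the scaling. With TMM-scaled totals, an alternative chosen after seeing the data, the libraries labelled Tektin-C KD were the highest other group for 44 of the 81 genes, the sa mutant for 26, the libraries labelled Klp59D KD for 9 and B9d1 KD for 2, against 34.5%, 38.4%, 7.76% and 19.3% of all 9353 genes. The sa mutant was then the lowest for 28 genes and B9d1 KD for 27, against 37.1% and 17.8% of all 9353 genes. The libraries labelled Klp59D KD were lowest for 18 and those labelled Tektin-C KD for 7, against 9.12% and 35.9%.

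Among the 30 genes with a ratio of 10 or more, B9d1 KD alone was the lowest group in 12, and among the 51 with a lower ratio it was in 4, against 9.02% of all 9353 genes. Under TMM scaling these counts were 14 and 13, against 17.8%. The libraries labelled Tektin-C KD were highest and the sa mutant lowest in 15 of the 81 genes (18.5%, against 19.7% of all genes), and the sa mutant was highest and the libraries labelled Tektin-C KD lowest in 15 (against 40.3%). Under TMM scaling the first order held in 24 genes and the second in 5, against 27% and 22.4% of all genes.

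Pairs of the 4 other groups were compared by how many of the 81 genes were at least 2-fold apart, leaving out genes with 3 counts or fewer in both. Between B9d1 KD and the libraries labelled Tektin-C KD, 78 genes could be compared, and 8 were higher in B9d1 KD and 23 under the label Tektin-C KD. Of all genes at 4 CPM or more in WT, 27.5% and 10.9% were, so the direction over the 81 genes was opposite to that over all genes. Under TMM scaling the split of the 81 genes was 5 to 32 and that of all genes turned to 1138 against 1888, the same direction.

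The libraries labelled Tektin-C KD were also above those labelled Klp59D KD in 22 of 80 genes and below in 7, beside 6.26% and 13.5% of all genes. With TMM scaling this became 32 and 3, and over all genes 1288 and 176, so here too the 81 genes and all genes went the same way under TMM. RLE (relative log expression) scaling gave the same directions as TMM for both pairs. With structural and mitochondrial RNA left out of the totals, the directions stayed opposite for both pairs, at 7 to 23 against 2535 to 1036 for the first and 22 to 7 against 571 to 1314 for the second. B9d1 KD and the libraries labelled Klp59D KD were the closest pair. Of 79 genes, 5 were higher in B9d1 KD and 11 under the label Klp59D KD, beside 4.05% and 3.24% of all genes.

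Against the sa mutant, B9d1 KD was higher in 13 of 80 genes and lower in 27, beside 19.7% and 17.1% of all genes. Libraries labelled Tektin-C KD were above the sa mutant in 23 of 80 genes and below in 25, beside 22.1% and 43.7% of all genes. Under TMM scaling the split became 31 and 13, and that of all genes turned to 2630 against 1979, the same direction. The libraries labelled Klp59D KD were above the sa mutant in 18 and below in 21, beside 20.3% and 20.8% of all genes. This split turned to 20 and 19 under TMM scaling (2183 and 1303 over all genes) and was 16 and 26 with structural and mitochondrial RNA left out of the totals. Nearly all of these differences exceeded counting error. Across the 6 pairs, in the order given, the interval of the ratio excluded equality in 8 and 22, 21 and 6, 5 and 9, 12 and 24, 23 and 24, and 17 and 20 of the genes.

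Individual genes show what kept a level in a single group. In the sa mutant, CG10650 (chr2L:18993360-18995934, minus strand) stood at 23.2 and 22.1 CPM against 104 and 98.4 in WT, 1.66 and 1.79 in B9d1 KD, 1.91 and 1.95 under the label Tektin-C KD and 1.46 and 1.09 under the label Klp59D KD. It was at most 1.93 CPM in any knockdown, with no overlap with the sa mutant. CG15152 had 25 counts in the sa mutant (0.668 CPM), against 4 to 6 counts in the knockdowns, and CG13946 was at 1.42 CPM, against 0.0392 to 0.393 CPM.

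The libraries labelled Tektin-C KD stood out for CG43449, CG43401 and asRNA:CR43948. CG43449 (chr3R:11088420-11089356, plus strand) stood at 50.2 and 49.7 CPM in WT, 1.53 and 0.909 in the sa mutant, 2.36 and 2.23 in B9d1 KD, 2.43 and 2.58 under the label Klp59D KD and 9.78 and 10.3 under the label Tektin-C KD. CG43401 was at 57.7 CPM in WT, 3.88 under the label Tektin-C KD and 0.321 to 0.862 CPM in the remaining groups. The antisense RNA asRNA:CR43948, which overlaps eve on the opposite strand, was at 11.9 CPM in WT, 2.55 under the label Tektin-C KD and 0.118 to 0.374 CPM in the remaining groups. Since eve itself was at 0.104 CPM in WT and 0.107 CPM or less elsewhere, few reads of the locus were counted to it.

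B9d1 KD stood out least. CG34049 was at 34.2 CPM in WT, 7.47 in B9d1 KD and 1.42 to 3.54 CPM in the remaining groups, and it overlaps CG4270 on the opposite strand, which was at 76.2 CPM in WT. CG1441 was at 23.2 CPM in WT and close in B9d1 KD (5.12) and the sa mutant (4.62), above 1.06 and 1.36 CPM under the labels Tektin-C KD and Klp59D KD. For the libraries labelled Klp59D KD, CG17177 was at 34.6 CPM in WT, 5.54 there and 1.59 to 2.19 CPM in the others.

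The genes were spread over the X chromosome and all arms of the major autosomes, with 23 on 2L (28.4%, against 19.1% of all annotated genes at 4 CPM or more in WT), 21 on 3R (25.9% against 24.5%), 14 on 2R (17.3% against 20.2%), 11 on X (13.6% against 16%), 11 on 3L (13.6% against 19.1%) and 1 on chromosome 4. The gene on chromosome 4 is 1.23% of the 81, against 0.719% of all annotated genes at that level. None lies on the Y chromosome, which holds 0.142% of those genes, so none is near that share. The exons of the kept genes were short in sum. The summed exon length of the 77 protein-coding genes had a median of 1035 bases, against 1969.5 over 8534 genes, and 37 of the 77 (48.1%) were under 1000 bases, against 17.9%. A single exon was annotated for 19 (24.7% against 14.2%). Genes with WT 2 to 4 times above the highest other group, just under the rule, lay between these values, with a median length of 1377 bases and 32.9% under 1000 bases. Length also sets how many counts a gene gives at a fixed transcript number, and its part in passing the minimum of 4 CPM was not tested.

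**Figure D5:**
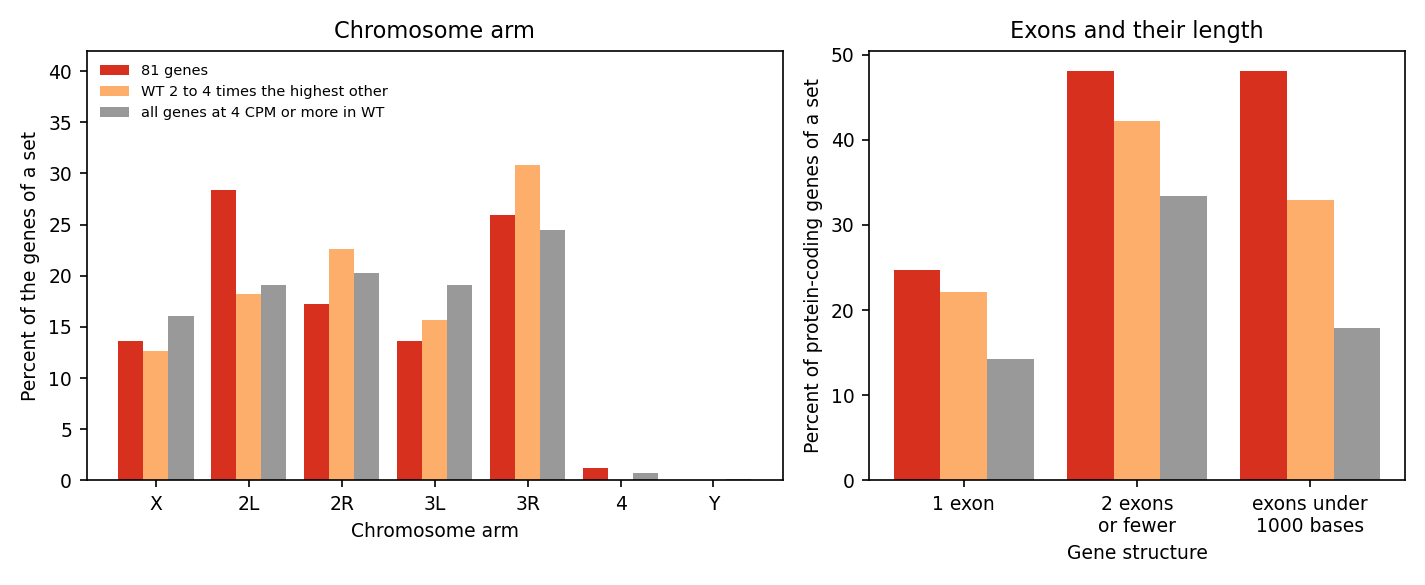
Left, percent of genes on each chromosome arm, and right, percent of protein-coding genes with 1 exon, with 2 exons or fewer and with under 1000 bases of exon, for the 81 genes (red), genes with WT 2 to 4 times the highest other group (orange) and all annotated genes at 4 CPM or more in WT (gray). The share of genes under 1000 bases is 48.1%, 32.9% and 17.9% in the 3 sets.

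Some of the genes neighbour each other. Of the 162 nearest neighbours at 4 CPM or more in WT, counted once on each side of the 81 genes, 10 (6.17%) were themselves among the 81, against 0.884% of all neighbours, and 8 of the genes have such a neighbour. The 151 other neighbours, of which 1 lies beside a pair of the 81 genes and was counted once here, had a median ratio of WT to the highest other group of 0.639, against 0.484 over all genes, and WT was highest in 27.2% of them, against 18.4%. Runs with no gap above 20 kb were found 4 times, 2 of them with 3 genes.

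The first run of 3 is made of CG12506, CG13946 and CG13947 (dm6 chr2L:773547-779655, plus strand). CG12506 stood at 173 and 165 CPM in WT, 3.63 and 2.98 in the sa mutant, 0.414 and 0.335 in B9d1 KD, 0.648 and 0.436 under the label Klp59D KD and 0.974 and 1.4 under the label Tektin-C KD. CG13946 stood at 42.3 and 43.5 CPM in WT, 1.25 and 1.57 in the sa mutant, 0 and 0.0745 in B9d1 KD, 0.081 and 0.218 under the label Klp59D KD and 0.541 and 0.26 under the label Tektin-C KD. CG13947 stood at 78.2 and 67.6 CPM in WT, 1.13 and 0.404 in the sa mutant, 0.0829 and 0.112 in B9d1 KD, 0.446 and 0.509 under the label Klp59D KD and 0.83 and 0.552 under the label Tektin-C KD. All 3 were lowest in B9d1 KD, intermediate under the labels Tektin-C KD and Klp59D KD, but highest outside WT in the sa mutant, and no other gene is annotated between them. For CG13947 the sa mutant and the libraries labelled Tektin-C KD overlapped, and their order turns under TMM scaling.

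The second run of 3, CG14635, CG3713 and CG14634 (dm6 chrX:844823-863200), lies wholly within the span of the larger gene CG43867. CG3713 stood at 61.9 and 62.5 CPM in WT, 2.27 and 2.73 in the sa mutant, 4.64 and 6.29 in B9d1 KD, 7.61 and 6.76 under the label Klp59D KD and 6.06 and 6.07 under the label Tektin-C KD. It is on the minus strand, as is CG43867, while the other 2 are on the plus strand. CG14635 was at 22.9 CPM in WT and 0.667 to 1.8 CPM elsewhere, and CG14634 was at 12.6 and 0.588 to 0.802 CPM. The host gene went the other way, with its lowest level in WT (7.72 CPM) and 14.4 to 27.2 CPM elsewhere.

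The 2 runs of 2 were GstD3 with GstD5, described above, and CG16772 with Hf on 2L. Between CG16772 (5.42 CPM in WT, 1.04 in the sa mutant) and Hf lies CG10680, at 20.8 CPM in WT and 3.01 to 6.17 CPM elsewhere, a ratio of 3.37, just short of the rule. CG17919, just outside the fold threshold, lies beside CG17917 on 3R in the same orientation. It was at 24.9 CPM in WT and 2.35 to 6.30 CPM elsewhere, beside the ratio of 103 for CG17917.

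Overlaps limit the reading of 26 of the 81 genes. Another gene overlaps 23 of them on the opposite strand and 4 on the same strand, and 55 have no overlap. The library kit keeps strand, but the counter's strand setting is not given in the sources used here. CG43376, for example, was at 74.5 CPM in WT and 9.84 CPM under the label Tektin-C KD, while CG9008 on the opposite strand was at 64.1 CPM in WT and 153 CPM in those libraries, so the pair moved in opposite directions.

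Lists of genes of other cell types and of germ cell steps were set beside the 81. Of the 414 different genes measured on 19 lists, 5 were among the 81 (Amy-d, AttB, GstD3, GstD5 and Cyp9b2). The kept share of genes at 4 CPM or more in WT was 0.866% over all 9353. It was 33.3% of 3 midgut genes, 6.67% of the antimicrobial list, 7.41% of the glutathione S-transferases and 2.38% of the P450 genes. The other 15 lists held none. Each had only 1 to 27 genes at 4 CPM or more in WT, too few to set none apart from 0.866%. A further list, of replication-dependent histones, had no measured gene. The muscle sheath list, 28 measured, held none of the 81, yet it was higher in WT as a whole, at 4280.0 CPM against 1803 to 2497 CPM, with 10 of its 25 genes at 4 CPM or more in WT (40.0%) at least 2-fold above every other group, against 5.12% of all genes. Accessory gland markers went the opposite way, at 38.3 CPM in WT and 480.3 to 3643 CPM elsewhere. Hemocyte markers were at 1171 CPM in WT and 1225 CPM in the sa mutant and at 422 to 472 CPM in the knockdowns, but Col4a1 and vkg, genes of basement membrane collagen, carried most of the WT sum. Without these 2 genes the sums were 231 CPM in WT, 505 in the sa mutant and 191 to 227 CPM in the knockdowns. Fat body markers were at 1166 CPM in WT and 1004 to 1621 CPM elsewhere. The late spermatid and sperm tail list was at 44809.6 CPM in WT, 44846 under the label Tektin-C KD, 20705 in B9d1 KD, 24048 under the label Klp59D KD and 5801 CPM in the sa mutant, and its 1 gene past both thresholds was among those left out by name. No cup and comet gene, no Y-linked gene and no spermatocyte regulator on these lists was kept. This was out of 17, 10 and 18 genes at 4 CPM or more in WT, and none is near the 0.866% of all genes. The part of these differences in cell makeup in the levels of the 81 genes was not tested.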

How the data were processed

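The deposited files give, for each of 10 libraries, raw read counts of 17412 genes by FlyBase identifier, which the authors deposited as whole numbers that show no normalization. Per the labels' protocols, total RNA was depleted of ribosomal RNA and libraries were made with a stranded kit. The submitters' processing notes name STAR 2.5.1b, Trim Galore 0.4.1 and dm6. Which counter was used, with what strand setting and rule for multiply mapped reads, is not given in the sources used here. Symbols (17138 genes; 274 had none), coordinates and exons came from the Ensembl annotation of the same assembly.

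Groups came from the labels. Over the genes checked, the 2 libraries of each group agreed within about the sampling noise, and they were summed (37428713 to 58510335 counts a group). No test was made, since each group is then 1 sample and the rule used every contrast with WT. A floor of 3 counts replaced lower counts in medians and pairs. Intervals are exact binomial, from scipy 1.17.1 in Python 3.11.15, and, like the floors, they cover counting error only, since the counts carry no molecular identifiers. TMM and RLE (relative log expression) factors came from edgeR 4.0.16 in R 4.3.3 over 13831 genes. The rule was tested on simulated counts.

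The members, gene lists and role groups were chosen with earlier results of these data known. The rule for named genes took the 10 highest WT CPM, the 10 largest ratios, members of a list, up to 3 members with 10 CPM or more in WT that stood highest in each other group, runs of 3 or more members, the 3 genes on each side of both thresholds, and the targeted genes. Alternatives were other scalings, each library left out, other thresholds, 3-fold in place of 2-fold, and a prior count of 2 in place of the floor. List sums without their highest genes and the orders of the other groups under each scaling were added after seeing the data. No sequences were used here.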

Additional observations from a re-analysis of the deposited data

How the results depend on the processing

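No paired analysis was possible because no result comes from a test and the 2 libraries of each group were summed. The number of genes kept (81) was 179 under TMM and 184 under RLE scaling, 136 with no WT minimum, 151 at 3 times and 36 at 8 times the highest other group. All 81 were among those kept under TMM, RLE, no minimum and 3 times. Counted after the same omissions by name, which include 10 muscle genes, the set also held 2 other muscle sheath genes under TMM, RLE and 3 times. The other thresholds gave 64 to 92 genes and leaving out a library gave 80 to 82. Median log2 ratios of WT over the other group became 4.65 (TMM) and 4.68 (RLE) for B9d1 KD, 4.57 and 4.6 for the libraries labelled Klp59D KD, and 4.84 and 4.90 for the sa mutant. Leaving out a library gave 3.86 to 4.14 for B9d1 KD, 3.71 to 3.87 for the libraries labelled Tektin-C KD, 4.01 to 4.15 for those labelled Klp59D KD and 4.0 to 4.13 for the sa mutant. A 3-fold limit left 24 genes apart between B9d1 KD and the sa mutant (40 at 2-fold), 12 between the labels Klp59D KD and Tektin-C KD (29), 29 between the sa mutant and the label Tektin-C KD (48) and 23 between it and the label Klp59D KD (39). The rule itself fixes the direction of the 40 named genes, so their direction is no sign of stability. Of 120 values of their ratio under other scalings, 55 moved by more than counting error, as did 4 of 400 with a library left out. Depth limits genes at or under 3 counts in another group, which were 7 in B9d1 KD, 5 in the sa mutant, and 3 under each of the labels Klp59D KD and Tektin-C KD. The cause of these shifts was not tested.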
